A study of Rattus norvegicus with 9 samples.

Results

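The genes described here are 10 members of a network of imprinted fetal growth genes: Igf2, H19, Meg3, Dlk1, Mest, Plagl1, Cdkn1c, Peg3, Grb10 and the transcription factor gene Plag1. They were measured in rat lung fibroblasts of postnatal days 2, 7 and 21 with Affymetrix 3′ expression arrays, which read total transcript and not parental allele. A probe set was used where the platform annotation gave it a listed gene as its only symbol. By that rule 9 of the 10 genes were measured, by 16 of the 31042 probe sets tested; Peg3 was not analysed here. The 9 genes stand among 14217 genes with a probe set of 1 symbol, and the brightest probe set by mean log2 over the 9 arrays stood for a gene.

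The groups were 3 arrays of day 2, before alveolar septation, 3 of day 7, while secondary septa were forming, and 3 of day 21, after they had formed. Each array held pooled cells of 1 litter, from 5 pups on day 2 and from 4 pups on days 7 and 21. All pups were rats with no genetic change or treatment named in the labels. The cells had been freed with trypsin and collagenase, kept if they stuck to plastic within a short plating in serum-containing medium, and scraped off at once, so they were freshly adherent lung cells rather than a passaged line. Values below are log2 of the deposited intensity. A gene was called changed where limma gave a Benjamini-Hochberg adjusted p under 0.05 over all 31042 probe sets, and every adjusted p below is of that kind.

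In imprinted genes only the maternal or only the paternal copy is active, and many of them act on fetal and early postnatal growth. In mice, Igf2, Dlk1, Mest, Plagl1 and Peg3 are expressed mainly from the paternal copy, and H19, Meg3, Cdkn1c and Grb10 mainly from the maternal copy in most tissues. Work in mice has described a set of such genes whose expression falls together in several organs as growth slows after birth. Plag1 itself is not counted among imprinted genes; it encodes a zinc-finger transcription factor that can activate a promoter of human IGF2, and Plagl1 encodes a related zinc-finger protein.

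Over the period from day 2 to day 21, 8 of the 9 measured genes fell and none rose, against 12.2% and 6.82% of all probe sets, and they did so at different times. Igf2 and H19 fell about 5.68-fold and 4.19-fold by day 7, and both changed more steeply downward before day 7 than after it. A second Igf2 probe set did not pass by day 7, rose after it and did not pass between days 2 and 21. With all Igf2 probe sets averaged, the fall of Igf2 from day 2 to day 21 was not called. Mest, Cdkn1c and Grb10 did not pass the test by day 7 and fell 4.79-fold, 3.23-fold and 2.71-fold between days 7 and 21, with a test of the difference between the intervals that also passed. Meg3 and Plag1 fell in each interval, though some alternatives lost their calls by day 7. For their brightest probe sets the difference between the intervals did not pass. A second Plag1 probe set was called only after day 7, and for it the difference passed. A second, dimmer Meg3 probe set was called only by day 7. For it the difference passed in the other direction, with means under the low end on days 7 and 21. Plagl1 fell after day 7, and Dlk1, which lay at the low end of the arrays, passed no test.

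**Figure D1:**
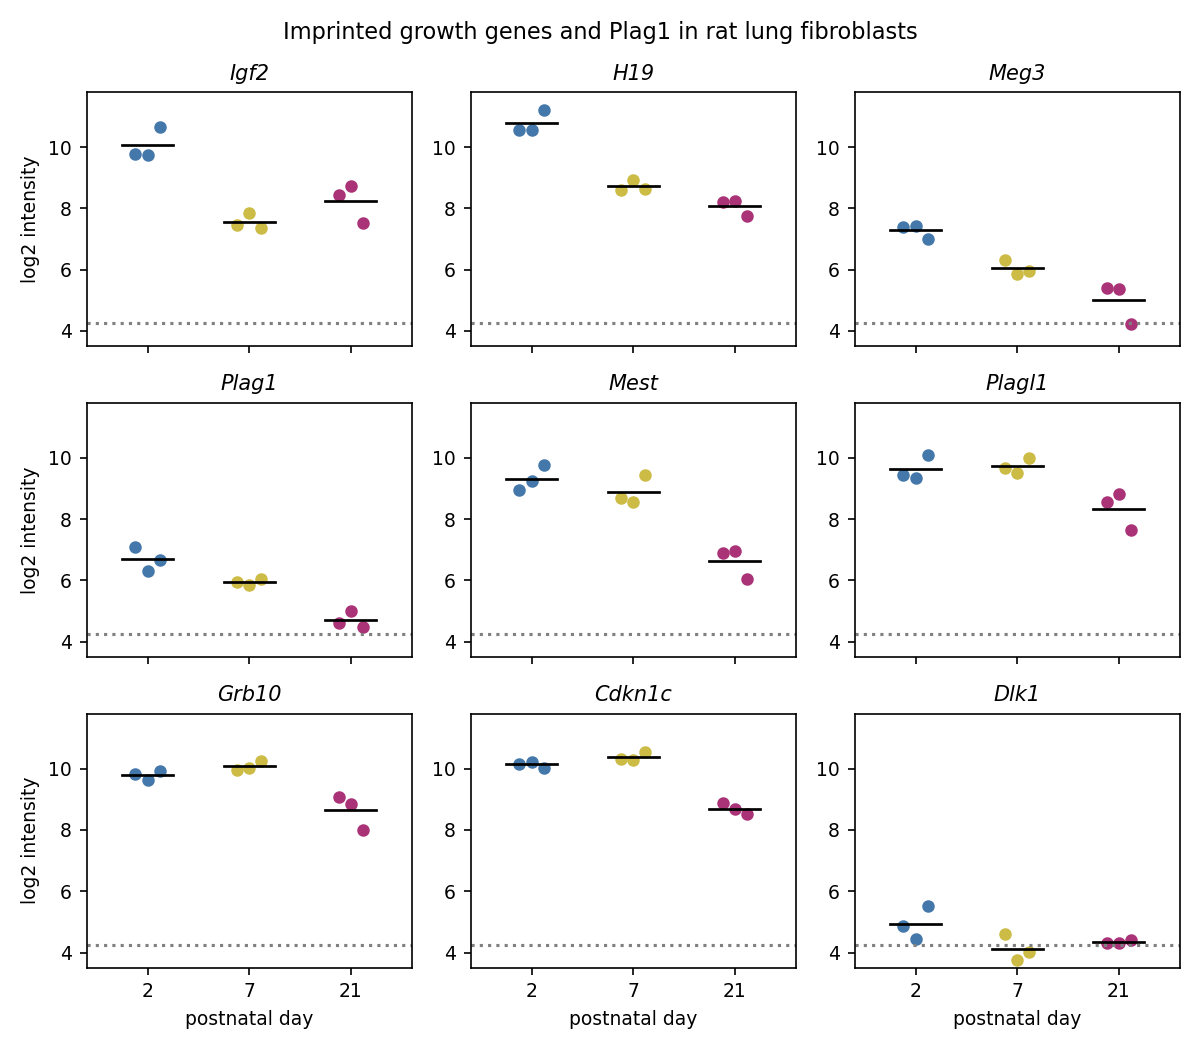
Log2 intensity of each of the 9 measured genes on the 3 arrays of days 2, 7 and 21; points are arrays, bars are the means of a day, the days are evenly spaced and the dotted line is the low end of the arrays (log2 4.25). Igf2 and H19 dropped between days 2 and 7, whereas Mest, Plagl1, Cdkn1c and Grb10 dropped between days 7 and 21.

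The promoters of 4 genes are shown because they stand for the different courses: Igf2 for the early fall, Meg3 for the stepwise one, and Mest and Plagl1 for the late one. Each runs from 250 bases before to 50 bases after an annotated start, 5′ to 3′ on the gene's strand, from RefSeq on GRCr8. The Igf2 promoter is that of its second annotated start, at chr1:207250426-207250725 on the minus strand. Those of Meg3, Mest and Plagl1 lie on the plus strand at chr6:134273806-134274105, chr4:60321564-60321863 and chr1:9297214-9297513. Capitals mark matches to the PLAG1 consensus (in Igf2 and Plagl1) and to TATAAA (in Meg3, a match on each strand that overlap each other).
Igf2 start 2: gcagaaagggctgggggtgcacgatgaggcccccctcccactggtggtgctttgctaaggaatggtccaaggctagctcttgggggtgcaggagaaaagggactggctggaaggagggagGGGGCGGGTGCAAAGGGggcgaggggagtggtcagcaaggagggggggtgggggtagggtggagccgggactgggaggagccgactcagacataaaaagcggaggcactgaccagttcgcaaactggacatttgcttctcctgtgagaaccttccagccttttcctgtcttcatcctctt
Meg3 start 1: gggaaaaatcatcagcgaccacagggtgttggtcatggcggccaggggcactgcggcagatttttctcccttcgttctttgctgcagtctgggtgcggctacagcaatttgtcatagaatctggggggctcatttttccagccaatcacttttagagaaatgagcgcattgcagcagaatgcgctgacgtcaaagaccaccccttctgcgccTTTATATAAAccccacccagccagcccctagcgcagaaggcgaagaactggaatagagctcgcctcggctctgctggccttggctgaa
Mest start 1: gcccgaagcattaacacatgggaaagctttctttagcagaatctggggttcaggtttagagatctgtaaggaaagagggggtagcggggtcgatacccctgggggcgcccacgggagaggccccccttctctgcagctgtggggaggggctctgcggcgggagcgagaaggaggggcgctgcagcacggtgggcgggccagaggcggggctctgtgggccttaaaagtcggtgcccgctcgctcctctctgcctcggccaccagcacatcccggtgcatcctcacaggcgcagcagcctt
Plagl1 start 1: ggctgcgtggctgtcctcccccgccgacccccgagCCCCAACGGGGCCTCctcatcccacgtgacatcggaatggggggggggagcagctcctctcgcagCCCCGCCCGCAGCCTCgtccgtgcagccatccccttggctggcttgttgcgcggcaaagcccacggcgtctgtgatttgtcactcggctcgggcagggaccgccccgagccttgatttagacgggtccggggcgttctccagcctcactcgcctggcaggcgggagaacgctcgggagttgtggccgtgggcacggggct

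The table held 8 promoters of 7 of the 10 genes, with none for H19, Cdkn1c or Plag1. A match to the PLAG1 consensus on either strand was in 4 of the 8, those of Dlk1 and Peg3 besides the pair marked above, and in 17.1% of all 33469 promoters of the same length. The promoter of the first annotated Igf2 start, which is not printed, held no such match. TATAAA on either strand was in 1 of the 8 and in 14.2% of all. These promoters were also rich in G and C, with 54.3% to 79.7% of their bases against a median of 51.7% over all promoters, and the PLAG1 consensus is itself G-rich. The letters describe the windows only, and binding was not measured.

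The transcripts of Igf2, H19 and Meg3 are also the hosts of microRNAs, which these arrays did not measure. Those of Meg3, rno-miR-770-5p and rno-miR-770-3p, are not printed here. The mature sequences hosted by Igf2 and H19 on GRCr8 are given because these transcripts fell, with the seed (bases 2 to 8) in capitals. The 4 seeds differ from each other. All lie on the minus strand of chromosome 1, rno-miR-483-3p at chr1:207247865-207247886, rno-miR-483-5p at chr1:207247903-207247924, rno-miR-675-3p at chr1:207161766-207161786 and rno-miR-675-5p at chr1:207161800-207161821.
rno-miR-483-3p: cACUCCUCcccucccgucuugu
rno-miR-483-5p: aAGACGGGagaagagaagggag
rno-miR-675-3p: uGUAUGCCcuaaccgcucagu
rno-miR-675-5p: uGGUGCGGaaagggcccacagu

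The arrays were of like brightness, with medians of log2 5.24 to 5.66, and 25% of all values lay under log2 4.25, taken here as the low end. Correlation across probe sets was 0.976 to 0.988 within a day and 0.880 to 0.974 between days. Fibroblast markers were mostly bright: Col1a1, a main collagen gene, read log2 11.90 to 12.95 and Pdgfra, a receptor gene of lung mesenchyme, 7.16 to 9.34, while Thy1 read 4.34 to 5.55, near the low end. None of the 15 passed the limma test by day 7 (median log2 change 0.08, with 1 at an unadjusted p under 0.05). In that comparison 3.44% of all probe sets fell and 5.5% rose. From day 7 to day 21, 2 of the 15 rose and 5 fell, against 11% and 19.1% of all probe sets. Macrophage markers were bright as well, and their summed intensity was 22263 to 25433 on day 2, 8261 to 13224 on day 7 and 28051 to 38102 on day 21. Array 3 of day 21 stood apart, with the lowest fibroblast sum of all arrays (35752) and the highest macrophage sum (38102). It was the lowest array of its day for 8 of the 9 genes, all but Dlk1. For the brightest probe sets of the 9 genes, each result that rests on day 21 is also given without it where that changed a call. For their other probe sets and for the genes of the other lists no such values are given. In pooled cells of this kind, fewer cells of a type and less RNA per cell cannot be told apart.

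Igf2 encodes insulin-like growth factor 2, a fetal growth factor that signals through the IGF1 and insulin receptors. Its brightest probe set read log2 9.78, 9.76 and 10.67 on the day 2 arrays, 7.45, 7.86 and 7.38 on the day 7 arrays and 8.45, 8.74 and 7.52 on the day 21 arrays. All day 7 arrays lay below all day 2 arrays, and the day 21 arrays also lay below those of day 2 while overlapping those of day 7. Igf2 was lower by 2.51 ± 0.32 on day 7 than on day 2 (log2 change -2.51, SE 0.32, n = 3 a day, limma adjusted p = 0.00136). On day 7, 17.6% of the day 2 level was left (95% interval 10.9% to 28.5%).

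No further fall of Igf2 was called after day 7. Its change from day 7 to day 21 was 0.68 ± 0.32 (limma adjusted p = 0.141, 95% interval -0.02 to 1.37), and 28.1% of the day 2 level was left on day 21 (interval 17.4% to 45.6%). Day 21 was lower than day 2 by 1.83 on the log2 scale (change -1.83, SE 0.32, adjusted p = 0.00217 by limma). The second interval's change minus the first's was 3.18 ± 0.55 (limma adjusted p = 0.00124). Without array 3 of day 21 the change after day 7 was 1.03 and passed as a rise (limma adjusted p = 0.0188), as it did after a further quantile normalization (0.85, adjusted p = 0.0454) and after centring on the fibroblast markers (1.05, adjusted p = 0.00457).

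The second probe set of Igf2 above the low end, 1371206_a_at, read log2 6.77, 6.70 and 6.68 on day 2, 6.44, 6.19 and 5.92 on day 7 and 6.92, 6.88 and 7.53 on day 21. It went the same way as the brightest one by day 7 but did not pass there (-0.53, limma adjusted p = 0.133), and it rose after day 7 (0.92, adjusted p = 0.00369). Its day 21 level did not differ past the threshold from that of day 2 (0.39, limma adjusted p = 0.195). The other 2 probe sets of Igf2 averaged log2 4.29 to 4.54 on every day, near the low end, and passed no test. With all 4 averaged, the fall from day 2 to day 21 was -0.33 and no longer passed (limma adjusted p = 0.1).

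The course of Igf2 after day 7 was set beside markers of other cells. For scale, 3.44% of all probe sets fell and 5.5% rose by day 7, and 19.1% fell and 11% rose after it. Of 18 macrophage markers measured, 12 fell by day 7 and none rose (median -1.20), and all 18 rose after it (median 1.87). Of 12 cartilage markers 7 fell by day 7 (median -1.84) and 9 rose after it (median 1.67), and their summed intensity was 1316 to 2678 on day 2, 258 to 369 on day 7 and 903 to 3716 on day 21. Fetal cartilage is known to express Igf2 in rodents. The summed intensity of 5 mesothelial markers was 437, 570 and 748 on day 2, 188, 421 and 229 on day 7 and 872, 1106 and 378 on day 21. Its highest array on each day and its lowest on day 21 were the same ones as for Igf2. Its lowest array on days 2 and 7 was array 1, whereas that of Igf2 was array 2 on day 2 and array 3 on day 7. Of those 5, Msln, which encodes mesothelin, fell (-1.79, limma adjusted p = 0.0258) and then rose (2.53, adjusted p = 0.000843), and Krt19, Upk1b, Wt1 and Lrrn4 were not called. The pericyte and smooth muscle sum shared with Igf2 its highest array on days 2 and 7 and its lowest on days 7 and 21. Its lowest array on day 2 and its highest on day 21 were array 1, whereas those of Igf2 were array 2. This sum was 3480 to 6196 on day 2, 5010 to 6314 on day 7 and 5645 to 7872 on day 21. Granulocyte and mast cell markers summed to 1213 to 3518, 200 to 376 and 651 to 2436 on these days. The part of any of these cells in the Igf2 values was not tested.

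H19, the long noncoding RNA next to Igf2 with no annotated gene between them, shares enhancers with it in mice. It read log2 10.56, 10.57 and 11.23 on day 2, 8.59, 8.92 and 8.65 on day 7 and 8.20, 8.24 and 7.77 on day 21. No array of one day overlapped those of another. H19 fell by 2.07 by day 7 (log2 change -2.07 ± 0.21, limma adjusted p = 0.000516) and by a further 0.65 by day 21 (-0.65 ± 0.21, adjusted p = 0.0353). It thus ended 6.58-fold lower on day 21 than on day 2 (limma adjusted p = 9.08e-06), with 15.2% of the day 2 level left (interval 11.03% to 20.9%). Of that net log2 fall, 76.0% had taken place by day 7.

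The second interval's change of H19 minus the first's was 1.42 ± 0.37 (limma adjusted p = 0.0141). It did not pass without array 1 of day 7 (1.29, adjusted p = 0.0647) or array 3 of day 7 (1.34, adjusted p = 0.0521). The later step was the weaker call: its limma adjusted p was 0.0505, 0.125 and 0.0579 without arrays 1, 2 and 3 of day 7, and 0.0511 and 0.137 without arrays 1 and 3 of day 21. It was also lost after quantile normalization (adjusted p = 0.0716), centring on array medians (0.0918), centring on fibroblast markers (0.354) and with the litter number as a replicate block (0.0549). After day 7 the change was 0.68 for Igf2 and -0.65 for H19, and the difference between these genes was not tested.

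**Figure D2:**
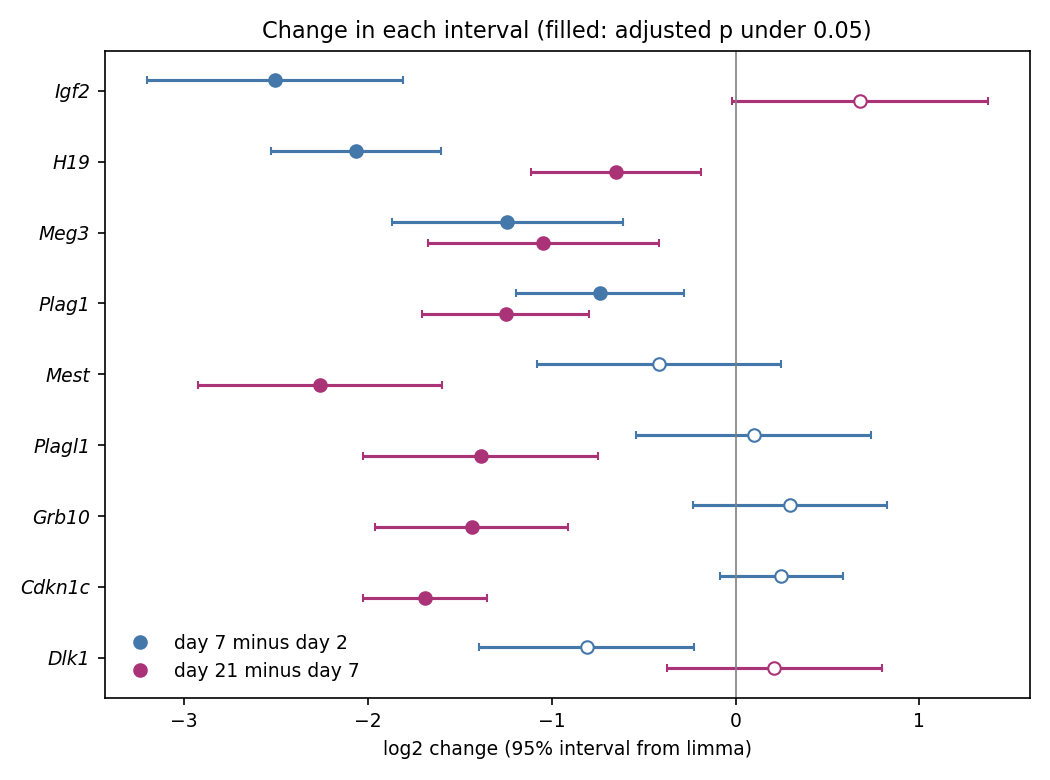
Log2 change of each gene with its 95% interval for day 7 against day 2 and for day 21 against day 7; filled markers passed the limma test at an adjusted p of 0.05. The early changes of Igf2 (-2.51) and H19 (-2.07) and the late changes of Mest (-2.26) and Cdkn1c (-1.69) lie farthest below 0.

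Dlk1 and Meg3 are neighbours on chromosome 6, with 1 annotated gene between them. Dlk1 encodes a transmembrane protein with epidermal growth factor-like repeats that holds back fat cell differentiation, and Meg3 is a long noncoding RNA. Meg3 read log2 7.40, 7.43 and 7.02 on day 2, 6.33, 5.85 and 5.96 on day 7 and 5.41, 5.37 and 4.21 on day 21. The 3 days did not overlap. Meg3 fell by 1.24 by day 7 (-1.24 ± 0.29, limma adjusted p = 0.0202) and by 1.04 from day 7 to day 21 (-1.04 ± 0.29, adjusted p = 0.0154), and 20.5% of its day 2 level was left on day 21. Array 3 of day 21 lay under the low end, so that this share is uncertain and has no value with the low end taken off first. The difference between the intervals was 0.20 with a 95% interval of -0.89 to 1.28 (limma adjusted p = 0.851).

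The first step of Meg3 did not pass without array 1 or 2 of day 2 (limma adjusted p = 0.0566 and 0.077) or without array 2 or 3 of day 7 (0.0743 and 0.0572). The later step did not pass without array 1 of day 7 (adjusted p = 0.0584) or after centring on fibroblast markers (0.0697). A dimmer probe set, 1377008_at, read log2 5.34, 5.10 and 5.76 on day 2, and its means on days 7 and 21 were under the low end. It fell by day 7 (-1.19, limma adjusted p = 0.00418) and showed no further call (-0.18, adjusted p = 0.56), though a fall under the low end could not be seen. For this probe set the difference between the intervals passed (1.01, limma adjusted p = 0.0496), with the same limit.

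Dlk1 read log2 4.87, 4.44 and 5.50 on day 2, 4.61, 3.77 and 4.01 on day 7 and 4.30, 4.32 and 4.41 on day 21. These values straddle the low end, so a level on days 7 and 21 cannot be told from none. Its change by day 7 was -0.81 ± 0.27 (limma adjusted p = 0.0875), and it passed without array 2 of day 2 (adjusted p = 0.0473), without array 1 of day 7 (0.0431) and after centring on array medians (0.0331).

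Plag1 read log2 7.09, 6.29 and 6.67 on day 2, 5.94, 5.85 and 6.05 on day 7 and 4.60, 4.99 and 4.49 on day 21. No days overlapped, and each lay below the day before it. Plag1 fell by 0.74 by day 7 (-0.74 ± 0.21, limma adjusted p = 0.0484) and by 1.25 after it (-1.25 ± 0.21, adjusted p = 0.000656), to a level 3.97-fold lower on day 21 than on day 2 (adjusted p = 7.43e-05). The step by day 7 lies close to the threshold. It was lost without arrays 1 or 3 of day 2 (limma adjusted p = 0.15 and 0.115), arrays 1, 2 or 3 of day 7 (0.118, 0.143 and 0.0764) or array 1 of day 21 (0.0663), with the replicate block (0.072), with the arrays of days 2 and 7 alone (0.0624) and after centring on fibroblast markers (0.059).

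A second Plag1 probe set, 1374259_at, read log2 6.15, 5.77 and 5.34 on day 2, 5.54, 5.01 and 5.23 on day 7 and 3.60, 3.45 and 3.24 on day 21. It passed no test by day 7 (-0.49, limma adjusted p = 0.214) and fell after it (-1.83, adjusted p = 5.83e-05), ending under the low end. For this probe set the second interval's fall was steeper than the first's (difference -1.34, limma adjusted p = 0.022), which for the brightest one did not pass (-0.51, adjusted p = 0.385). With the low end taken off each value first, 7.48% of the Plag1 level of day 2 was left on day 21, in place of 25.2%.

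Plagl1, whose protein is a zinc-finger regulator of other imprinted genes in mice, read log2 9.45, 9.33 and 10.10 on day 2, 9.67, 9.51 and 9.99 on day 7 and 8.55, 8.82 and 7.65 on day 21. Days 2 and 7 overlapped throughout, and all day 21 arrays lay lower. The change by day 7 was 0.10 with a 95% interval of -0.54 to 0.74 (limma adjusted p = 0.905). Plagl1 then fell by 1.38 (-1.38 ± 0.29, limma adjusted p = 0.00323), and 41.0% of the day 2 level was left on day 21 (interval 26.3% to 63.9%). The difference between the intervals, -1.48 ± 0.51, just missed the threshold (limma adjusted p = 0.054), and passed without array 3 of day 2 (0.0283), without array 2 of day 21 (0.0269), with dim probe sets left out (0.0445) and with a trended, robust variance (0.0451).

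Cdkn1c encodes p57, an inhibitor of cyclin-dependent kinases that holds back cell division, and lies on chromosome 1 with 11 annotated genes between it and Igf2. It read log2 10.17, 10.22 and 10.03 on day 2, 10.33, 10.28 and 10.56 on day 7 and 8.89, 8.68 and 8.53 on day 21. The day 7 arrays were all above those of day 2 by a margin that did not pass (0.25 ± 0.15, limma adjusted p = 0.403). The day 21 arrays lay more than 1 log2 unit below all others. Cdkn1c fell by 1.69 from day 7 to day 21 (-1.69 ± 0.15, limma adjusted p = 9.02e-06), and 36.8% of its day 2 level was left (interval 29.2% to 46.5%). Of the 3 genes whose fall was steeper in the second interval, it had the smallest adjusted p for that difference (-1.94 ± 0.27, limma adjusted p = 0.000268), and this call held with any array left out.

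Grb10 encodes an adaptor protein that binds insulin and IGF1 receptors and dampens their signal. It read log2 9.82, 9.63 and 9.91 on day 2, 9.96, 10.04 and 10.25 on day 7 and 9.07, 8.86 and 8.005 on day 21. The day 7 arrays were all above those of day 2, by 0.29 ± 0.24 (limma adjusted p = 0.557), and the day 21 arrays were below both. Grb10 fell by 1.44 after day 7 (-1.44 ± 0.24, limma adjusted p = 0.000687), with 45.3% of the day 2 level left on day 21 (interval 31.5% to 65.3%). Its other probe sets fell alike after day 7, by 1.54 for 1397211_at (log2 change -1.54, limma adjusted p = 0.00496) and by 1.46 for 1394610_at (-1.46, adjusted p = 0.00139). By day 7 they had moved by 0.03 and 0.15, with no call. For the brightest probe set the difference between the intervals was -1.73 ± 0.42 (limma adjusted p = 0.00959) and held with any array left out. It also passed for 1394610_at (-1.61, limma adjusted p = 0.0264) but not for 1397211_at (-1.56, adjusted p = 0.0868).

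Mest encodes a protein of the alpha/beta-hydrolase fold and marks fetal mesoderm. It read log2 8.94, 9.23 and 9.77 on day 2, 8.69, 8.57 and 9.43 on day 7 and 6.91, 6.96 and 6.04 on day 21. Days 2 and 7 overlapped, and all day 21 arrays lay below both. By day 7 Mest had changed by -0.42 ± 0.30 (limma adjusted p = 0.496), which left 74.8% of the day 2 level with a wide interval of 47.2% to 119%. After day 7 it fell by 2.26 (-2.26 ± 0.30, limma adjusted p = 0.000138), the largest fall of that interval among the 9 genes, and 15.6% was left on day 21 (interval 9.87% to 24.8%). The difference between the intervals was -1.84 ± 0.53 (limma adjusted p = 0.0237) and was lost without array 3 of day 7 (-1.31, adjusted p = 0.124). An annotated Mest pseudogene exists, and its share of this signal was not tested.

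**Figure D3:**
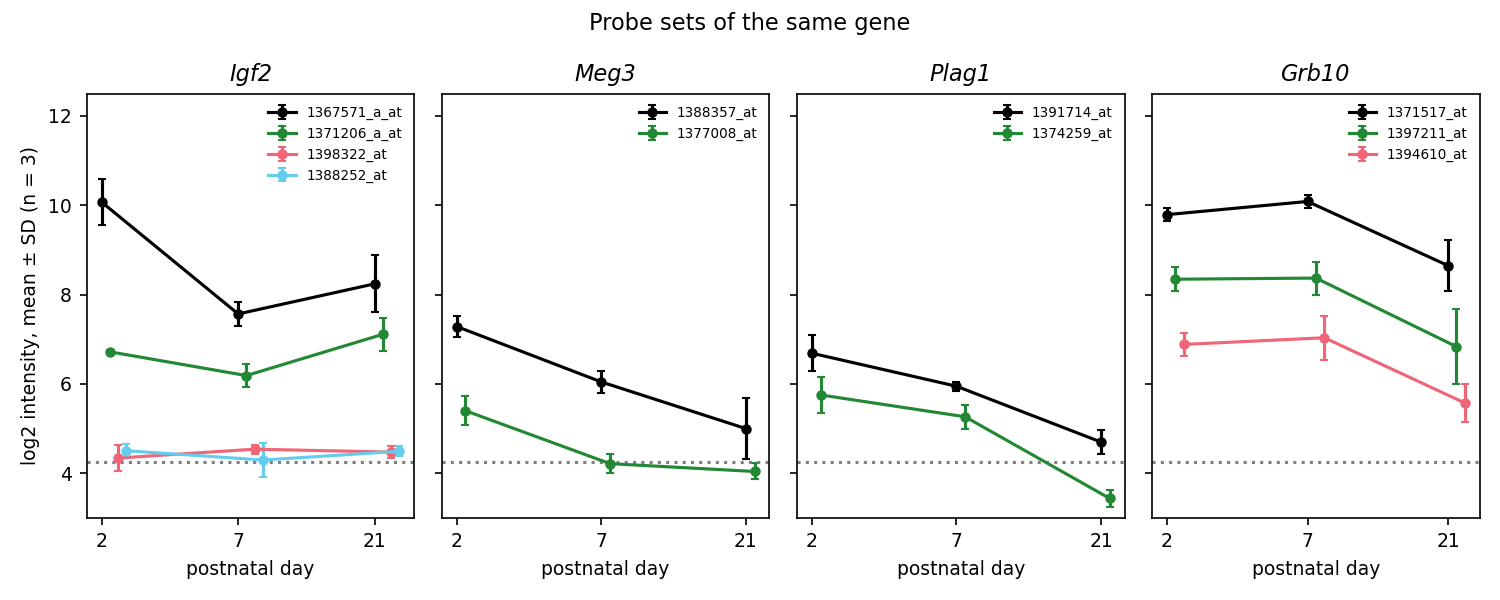
Mean log2 intensity and SD (3 arrays) on days 2, 7 and 21 of each probe set of the 4 genes measured by more than 1; the dotted line is the low end (log2 4.25). The 3 Grb10 probe sets run side by side, while 2 of the 4 Igf2 probe sets lie at the low end on every day.

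Counted together, 4 of the 9 genes were lower on day 7 than on day 2 (Igf2, H19, Meg3 and Plag1) and none higher, with a median log2 change of -0.74. Over all probe sets 3.44% were called lower and 5.5% higher in that comparison, with a median change of 0.05. From day 7 to day 21, 7 of the 9 were lower and none higher, with a median of -1.25. There 19.1% of all probe sets were called lower and 11% higher, with a median of 0.02. On day 21 against day 2, 8 of the 9 were lower, all but Dlk1, and none higher, with a median of -1.83. In that comparison 12.2% of all were called lower and 6.82% higher, with a median of 0.03. These shares are of probe sets, whereas the 9 are genes, each by its brightest probe set. With all probe sets of a gene averaged, 756 of 14217 genes were called lower and 1184 higher by day 7. The counts were 3500 and 2225 from day 7 to day 21, and 2295 and 1549 for day 21 against day 2. At an unadjusted limma p under 0.05, none of the 9 was higher in any of these comparisons either, and 5, 7 and 9 were lower. These comparisons share arrays, so they are not independent of each other.

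In the test of one interval against the other, 3 of the 9 genes were below 0, which means a change more negative after day 7, and 2 above 0. Over all probe sets 15.6% were below 0 and 7.9% above. The intervals differ in length, 5 days and 14 days, so the comparison is of steps between the sampled days and not of rates. The 8 falls from day 2 to day 21 were called with each of the 9 arrays left out in turn, and the falls of Igf2 and H19 by day 7 were too. The count by day 7 dropped to 2, Igf2 and H19, without array 1 of day 2 and without array 2 or 3 of day 7.

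The late falls came at the same interval as a drop in cell division genes. Of 29 proliferation genes measured, 3 rose by day 7 and none fell (median 0.26), and 25 fell after day 7 with none rising (median -1.55). Beside these and the counts below, 3.44% of all probe sets fell and 5.5% rose by day 7. After day 7, 19.1% of all fell and 11% rose. Cdk1, the kinase that drives entry into mitosis, fell by 3.76 (-3.76, limma adjusted p = 3.35e-07) and Top2a, the DNA topoisomerase of dividing cells, by 3.32 (-3.32, adjusted p = 8.81e-08). The summed intensity of the 29 genes was 7950 to 8121 on day 2, 9013 to 9257 on day 7 and 4948 to 5186 on day 21. The means of Cdkn1c, Grb10 and Plagl1 were highest on day 7, as was this sum, and its part in their values was not tested. From day 7 to day 21 all 18 macrophage markers rose too (median 1.87). Of the 15 fibroblast markers 5 fell and 2 rose (median 0.00). The largest of these falls were in Tcf21 (-2.44), Fn1 (-1.81), Fbln1 (-1.67) and Pdgfra (-1.40). Each array was also centred on the mean of the fibroblast markers. The late change was then -1.88 for Mest, -1.31 for Cdkn1c, -1.06 for Grb10, -1.01 for Plagl1 and -0.87 for Plag1. Each of these was still called by limma, with adjusted p up to 0.013, while the late calls of H19 and Meg3 were lost. That centring uses the mean of the list and not its median, and it moved the median of all probe sets from 0.02 to 0.39. Endothelial markers had the same order of days as Cdkn1c, Grb10 and Plagl1. Of 11 measured, 2 rose by day 7 and none fell (median 0.56), and 9 fell after it with none rising (median -1.05). Their summed intensity was 921 to 1180 on day 2, 1346 to 1610 on day 7 and 590 to 797 on day 21. Emcn, an endothelial sialomucin gene, rose (1.14, limma adjusted p = 0.00708) and then fell by 2.70 (-2.70, adjusted p = 3.29e-06), and the part of endothelial RNA in the late falls was not tested. Of the 7 other inhibitors of cyclin-dependent kinases, 2 rose and none fell by day 7 (median 0.40), and 1 rose and 2 fell after it (median -0.25). Cdkn3, a phosphatase gene of that list, fell by 3.11 after day 7 (-3.11, limma adjusted p = 2.53e-06). Cdkn2c rose by day 7 (1.01, limma adjusted p = 0.00315) and fell after it (-1.18, adjusted p = 0.000114), and Cdkn1a, which encodes p21, rose after day 7 (1.08, adjusted p = 0.000227).

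**Figure D4:**
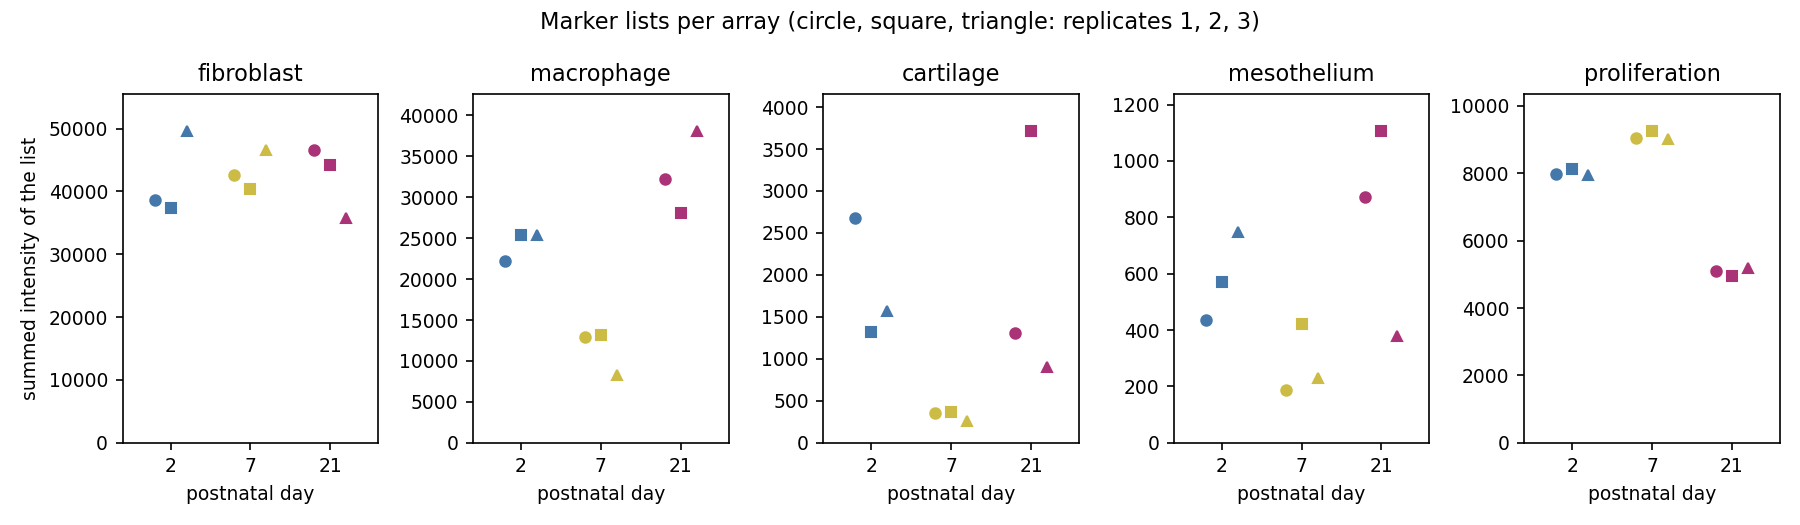
Summed intensity of the fibroblast, macrophage, cartilage, mesothelial and proliferation lists on each of the 9 arrays, by day, each axis starting at 0. Macrophage and cartilage sums are lowest on day 7, and the proliferation sum is lowest on day 21 (4948 to 5186).

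Other genes with imprinting reported in some mouse or human tissue made up the next list. Of 31 measured, none fell by day 7 (3.44% of all probe sets did) and 3 rose (5.5% of all), Ddc (0.94), Osbpl5 (0.63) and Copg2 (0.56), with a median of 0.14; at an unadjusted limma p under 0.05, 0 were lower and 7 higher. After day 7, 8 fell and 5 rose, with a median of -0.04, while 19.1% of all probe sets fell and 11% rose. Over all arrays 7 of the 31 averaged under the low end, among them Dio3, which is 1 of the 5 that rose. The falls were led by Ndn, which encodes necdin, a growth suppressor of neurons (-2.41, limma adjusted p = 2.18e-06), Osbpl5 (-1.75, adjusted p = 2.07e-05), Copg2 (-1.59, adjusted p = 1.32e-05) and Nnat, which encodes neuronatin (-1.49, adjusted p = 0.000822). Of the genes that rose, Dcn, which encodes the matrix proteoglycan decorin and is also one of the 15 fibroblast markers, changed by 1.29 (limma adjusted p = 0.00301) and Phlda2, a brake on placental growth in mice, by 1.09 (adjusted p = 0.000616). Copg2 overlaps or adjoins Mest in mammals, and the probe sets' strands were not checked.

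**Figure D5:**
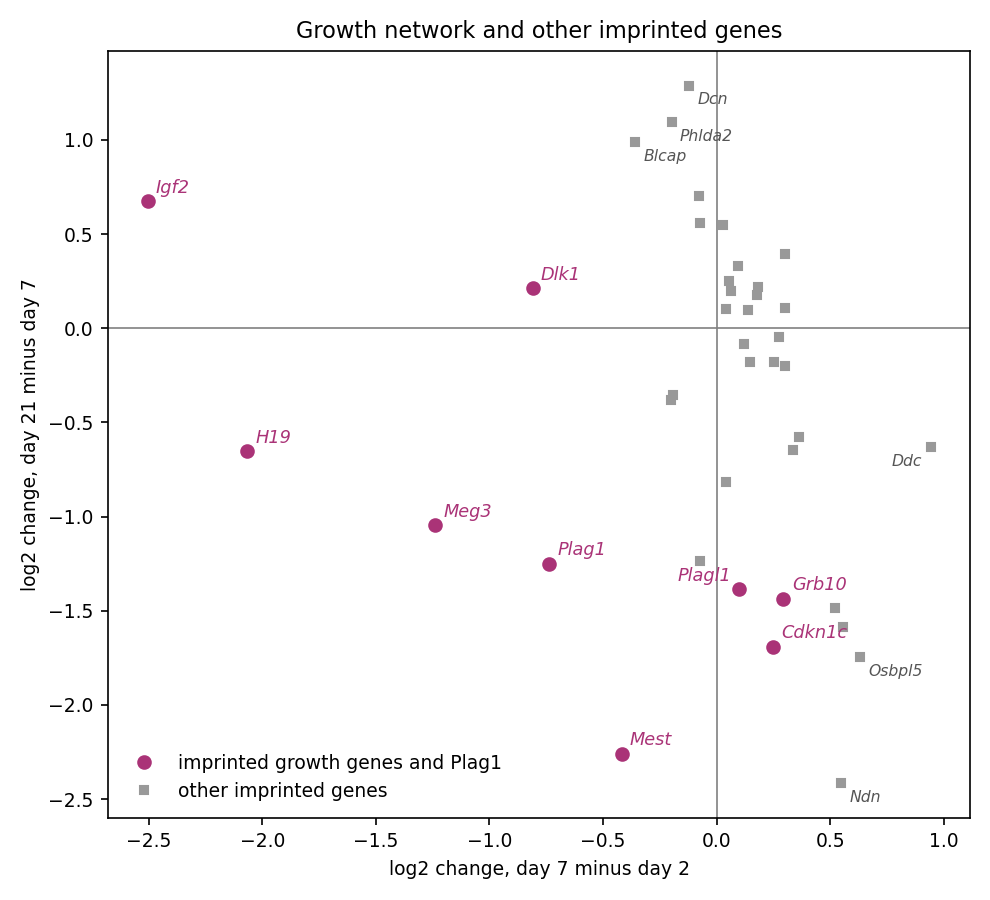
Log2 change from day 7 to day 21 against that from day 2 to day 7 for the 9 measured genes and 31 other genes with reported imprinting; both axes share the day 7 arrays. Igf2 and H19 lie far to the left, and Ndn lies with Mest at the bottom, at -2.41 and -2.26 on the vertical axis.

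Of 18 other measured genes of the IGF pathway, none passed the limma test by day 7, where 3.44% of all probe sets fell and 5.5% rose, with a median of 0.00; at an unadjusted p under 0.05, 4 were higher and 1 lower. After day 7, 7 fell and 2 rose, with a median of -0.45, against 19.1% and 11% of all probe sets. Insr, the insulin receptor gene, fell by 1.59 (-1.59, limma adjusted p = 0.000762), Irs1, an adaptor of that receptor, by 1.46 (-1.46, adjusted p = 1.95e-05) and Ghr, the growth hormone receptor gene, by 1.25 (-1.25, adjusted p = 0.00011). Igfbp6, which encodes a binding protein that prefers IGF2, rose by 1.93 (limma adjusted p = 5.54e-05). Igf2r, the receptor that clears IGF2 from the cell surface and is imprinted in mice, fell by 1.24 (-1.24, limma adjusted p = 0.000147). Igf1, the main postnatal ligand, read log2 10.84, 11.02 and 10.77 on day 2, 10.62, 11.13 and 10.39 on day 7 and 10.19, 9.70 and 10.62 on day 21, with no call in any comparison.

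Among 11 measured genes of fetal mRNA-binding and HMGA proteins and their kin, Igf2bp3 and Igf2bp2 also fell by day 7. Both encode proteins that bind IGF2 mRNA, and Igf2bp2 fell further after day 7. Igf2bp3 read log2 7.10, 7.32 and 7.31 on day 2, 6.03, 6.18 and 6.63 on day 7 and 5.70, 6.01 and 5.91 on day 21. It fell by 0.97 by day 7 (-0.97, limma adjusted p = 0.00705), with no call after it (-0.40, adjusted p = 0.116). Igf2bp2 read log2 9.78, 9.65 and 9.42 on day 2, 8.81, 8.65 and 9.28 on day 7 and 7.90, 7.47 and 7.67 on day 21, and fell in each interval (-0.70, limma adjusted p = 0.0451, and -1.23, adjusted p = 0.000456). Igf2bp1, Lin28a, Hmga2 and Sox11 lay at the low end. In all, 3 of the 11 fell and 1 rose by day 7, against 3.44% and 5.5% of all probe sets. After day 7, 5 fell and 2 rose, against 19.1% and 11% of all. The later counts include a fall of Sox11 and a rise of Lin28a whose means lay under the low end on every day. Hmga1 fell by 1.06 by day 7 (-1.06, limma adjusted p = 0.0136) and rose by 1.496 after it (adjusted p = 0.000322).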

How the data were processed

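Total RNA of 9 pools of freshly adherent rat lung cells was hybridised to 1-colour Affymetrix arrays. The deposited values are probe set intensity on a linear scale; per the submitters' processing notes they were made with affy and RMA, with versions not given in the sources here. RMA ends in log2 values, so the deposited intensities are taken to have been turned back, and log2 was taken again with no pseudocount. The array build is not given, and no coordinates are printed for probe sets. Of 31099 probe sets 57 controls were left out. Gene symbols came from the platform annotation: 20826 probe sets had 1 symbol, 436 several and 9780 none here; by Entrez number 20758 were found in a current RefSeq table, with 0 symbols changed.

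Limma 3.58.1 in R 4.3.3 fitted a mean for each day (residual df 6, prior df 5.69), with contrasts of day 7 minus day 2, day 21 minus day 7, day 21 minus day 2, and the second change minus the first. P-values were Benjamini-Hochberg adjusted over 31042 probe sets; they measure the spread between litter pools, and 3 arrays a day limit the precision. The fit was tested on simulated data. Same-numbered arrays share a litter number across days, but the labels do not say whether the litter is the same; deviations of same-numbered arrays correlated at -0.237 to 0.405, over 0.1 in 2 of 9 pairs. The genes and lists were chosen with earlier results of these data known. Named were the 10 genes, up to 4 called genes of a list with the largest change, the 3 genes of nearest profile and markers that moved with a result; Dcn, Phlda2, Igf2r, Igf1, Dnmt1, Ctcf and the genes said to lie at the low end were picked with their values known. Alternatives were normalization, filter, variance model, block, probe set rule and each array left out.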

Additional observations from a re-analysis of the deposited data

How the results depend on the processing

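No change called in the measured genes turned its sign under any of the alternatives run. The number of genes called lower on day 7 than on day 2 (4) ranged from 2 to 4 with 1 array left out. The number called higher on day 21 than on day 7 (0) was 1, Igf2, after further quantile normalization, after centring on fibroblast markers and with all probe sets of a gene averaged, and ranged from 0 to 1 with 1 array left out. The number called lower on day 21 than on day 7 (7) lost both H19 and Meg3 without array 1 of day 7 and after centring on fibroblast markers. H19 alone was lost under the other alternatives given for it above. The number with a more negative second interval (3) was 5 with all probe sets averaged, Plagl1 and Plag1 being added. It lost Mest without array 3 of day 7 and gained Plagl1 without array 3 of day 2 or array 2 of day 21. The number with a less negative one (2) ranged from 1 to 2 with 1 array left out. With the litter number as a replicate block, 3 genes were lower on day 7 than on day 2 (Plag1 lost, limma adjusted p = 0.072), 6 lower on day 21 than on day 7 (H19 lost, adjusted p = 0.0549) and 8 lower on day 21 than on day 2; no other call changed with the block.

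The whole table depends more on scaling. By day 7, 1068 probe sets were called lower and 1707 higher as deposited, 1272 and 902 with arrays centred on their medians, and 798 and 347 with arrays centred on fibroblast markers. From day 7 to day 21 the counts were 5920 and 3419 as deposited, 5412 and 5101 after quantile normalization, 4702 and 4340 with median centring, and 2575 and 6652 with fibroblast centring, which moves the median of all probe sets to 0.39. For day 21 against day 2 they were 3773 and 2118 as deposited, 3785 and 3397 after quantile normalization and 1349 and 2748 with fibroblast centring. For the difference between intervals they were 4851 below and 2451 above 0 as deposited, 4397 and 3502 after quantile normalization, 3441 and 3027 with median centring and 1842 and 3322 with fibroblast centring. With 1 array left out, the calls by day 7 ranged from 673 to 1155 lower and from 850 to 1814 higher, and those for day 21 against day 2 from 2617 to 3990 lower and from 1186 to 2565 higher. Levels near log2 4.25 bound what can be read: with the low end taken off first, 34.2% of the day 2 level of Meg3 was left on day 7 in place of 42.3%, and 51.2% of that of Plag1 in place of 59.9%; no such value could be had for Meg3 on day 21 or Dlk1 on day 7, with arrays under the low end.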

Other observations

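A list of genes of imprint upkeep and DNA methylation was also counted. Of 15 measured, 1 rose and none fell by day 7 (median 0.17), against 5.5% and 3.44% of all probe sets. After day 7, 6 fell, none rose and 9 did not pass (median -0.41), where 19.1% of all probe sets fell and 11% rose. Those that did not pass include Dnmt1, the maintenance methyltransferase gene (-0.45, limma adjusted p = 0.0949), and Ctcf (-0.23, adjusted p = 0.277). Zfp57, which encodes a zinc-finger protein that keeps methylation at imprinted loci in mice, fell by 2.04 (log2 change -2.04, limma adjusted p = 1.43e-05), and Uhrf1, which guides maintenance methylation in dividing cells, by 1.53 (-1.53, adjusted p = 2.6e-05). Tet2, which encodes an oxidase of methylated cytosine, fell by 1.28 (-1.28, limma adjusted p = 0.000456). Methylation and allele use were not measured.

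Over 13974 other genes, the profiles nearest to each gene were found by the root mean square difference of mean-centred log2 values over the 9 arrays. The 3 nearest to Igf2 were Lcn2 (0.430), Gcgr (0.548) and Cdh22 (0.568). For H19 they were Saa3 (0.283), Nrk (0.353) and Cdh22 (0.407), and for Meg3 Nrk (0.265), Cdh22 (0.378) and Adora2b (0.385). For Dlk1, itself at the low end, they were G4 (0.218), Misfal (0.257) and Ahrr (0.260). For Plag1 they were Cyp7b1 (0.224), Rad18 (0.227) and Capn6 (0.227), and for Mest Has2 (0.305), Mfap2 (0.311) and Fmod (0.352). For Plagl1 they were Cpxm1 (0.167), Jph2 (0.168) and Cul7 (0.187), for Cdkn1c Lig1 (0.101), Zfp266 (0.108) and Laptm4b (0.131), and for Grb10 Col5a1 (0.131), Rabl2 (0.134) and Gtf3c3 (0.134). Among the genes themselves the closest pairs were Plagl1 with Grb10 (0.213) and Cdkn1c with Grb10 (0.260), and the farthest was Igf2 with Cdkn1c (1.29). Igf2 and H19, neighbours on the chromosome, were 0.586 apart. These distances are descriptions over arrays that share 3 days.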
